A study of Mus musculus with 6 samples.

Results

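The genes described here are 41 genes of DNA replication and S phase, chosen by name for their roles in licensing origins, opening and copying DNA, supplying nucleotides and starting S phase. All 41 were measured, out of 18193 genes represented on the arrays. A probe set is a group of short oligonucleotides that reads 1 transcript, and each gene was represented by the probe set with the highest mean log2 signal over the 6 arrays among those assigned to that gene only. The arrays held RNA from the proximal colon of 3 wild-type control mice and 3 Hnf4α mutant littermates at 1 year of age, 1 mouse per array, all given ketamine (300 mg/kg) and xylazine (40 mg/kg) before they were killed. The mutants carried loxP sites in both copies of Hnf4α and Cre recombinase under the Villin promoter, which is active in the epithelium of the intestine but not in the other cells of the gut wall, so that RNA of the whole colon mixed recombined epithelium with cells that kept the gene. Which Cre or loxP alleles the controls carried is not given in the sources used here.

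Before a cell divides it copies its DNA once. The origin recognition complex, Cdc6 and Cdt1 place a ring of MCM proteins on each origin in G1, and geminin keeps Cdt1 from doing this again. In S phase Cdc45, the GINS proteins and Mcm10 turn the ring into an active helicase, polymerases α, δ and ε copy the strands with the help of a sliding clamp and its loader, and cyclin E with Cdk2 and the E2F transcription factors drive the entry into this phase. In the colon these genes are used mainly by dividing cells in the lower part of the crypts, while cells nearer the surface have stopped dividing. Hnf4α is a nuclear receptor of the gut epithelium.

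The targeted gene was lower in every mutant. The log2 signal of Hnf4a was 12.23, 12.01 and 11.97 in control replicates 1 to 3, against 10.17, 10.09 and 10.15 in mutant replicates 1 to 3, in that order. Sex differed between the groups: the controls and mutant replicate 1 are labelled female and mutant replicates 2 and 3 male, but Xist, the RNA of the inactive X chromosome, was 10.96, 9.94 and 10.90 in the controls and 5.03, 5.19 and 5.32 in the mutants. The Y-linked Eif2s3y was 3.02, 2.75 and 3.16 in the controls and 8.08, 7.85 and 8.12 in the mutants, so that by RNA all mutants were male and all controls female, and sex and genotype cannot be told apart here. Mutant replicate 2 stood apart by its tissue: the summed linear signal of 15 smooth muscle markers was 3733 there, against 43974 and 39987 in mutant replicates 1 and 3 and between 50563 and 54008 in controls. The 12 markers of gut epithelium summed to between 82495 and 90857 in controls and between 89411 and 98270 in mutants, so the labelled tissue held its epithelium on every array.

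Genes of DNA replication had higher signals in the mutants as a group, by modest amounts, and 1 of them passed the test across all probe sets. Of the 41 genes, 40 had a positive log2 fold change (mutant minus control), as did 60.4% of all genes. Their median was 0.45, against 0.051 for all genes, and 5.67% of all genes reached that median. By limma, Cdc6 alone rose at an adjusted p below 0.05, against 0.484% of all genes, and none fell, against 0.396% of all genes. At an adjusted p under 0.10, 7 were higher (Cdc6, Mcm3, Mcm4, Mcm5, Mcm6, Pola1 and Rrm1), against 1.24% of all genes. At an unadjusted p under 0.05, 30 were higher and none lower, against 10.0% and 6.18% of all genes. A log2 fold change of at least 1, a ratio of 2, was found in 5 of the 41 (Cdc6, Mcm3, Pola1, Rrm2 and E2f2) and in 1.11% of all genes. Groups of 3 allow no two-sided exact permutation p below 0.1 for a single gene. In RNA of whole tissue, a change in the number of dividing cells and a change in the RNA of each cannot be told apart.

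**Figure D1:**
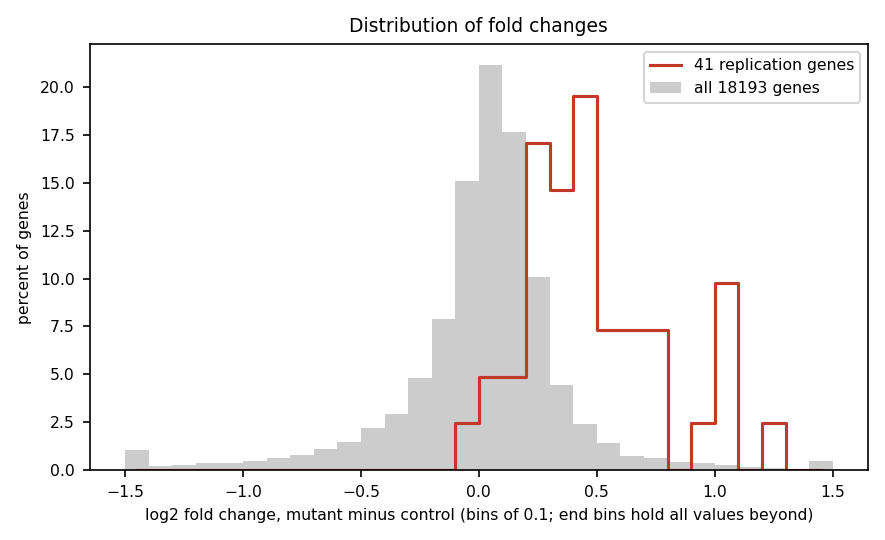
Share of genes (vertical axis, percent) by log2 fold change, mutant minus control (horizontal axis, bins of 0.1), for all 18193 genes (grey bars) and for the 41 replication genes (red line). The replication genes lie to the right, with a median of 0.45 against 0.051 for all genes.

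The groups were separate for most of these genes. All 3 mutants lay above all 3 controls in 28 of the 41, against 14.5% of all genes, and in none did they lie below, against 8.86% of all genes. The median of the 41 genes, relative to the mean of the controls, was -0.065, 0.13 and -0.057 in the controls, against 0.39, 0.65 and 0.36 in mutant replicates 1 to 3, in that order. Mutant replicate 2, the array low in muscle RNA, was thus the highest, and it was the highest of the 6 arrays for 31 of the 41 genes, against 30.4% of all genes. The lowest mutant lay above the highest control by this median.

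Without mutant replicate 2 the direction stayed and the size shrank. Of the 41 genes, 40 still had a positive log2 fold change, against 57.5% of all genes, and the median was 0.34, against 0.032 for all genes. None passed an adjusted p of 0.05 there, against 0.236% of all genes. At an unadjusted p under 0.05, 19 were higher and none lower, against 6.29% of all genes that were higher, and without control replicate 3 the number was 18. Mutant replicates 1 and 3 both lay above all controls in 29 of the 41 genes, against 17.1% of all genes. With the median of smooth muscle markers as a covariate in limma, the 41 genes had a median of 0.32, against 0.030 for all genes. In that fit 16 were higher at an unadjusted p under 0.05 and none passed after adjustment. The share of all genes was not counted for that fit or for the one without control replicate 3. The muscle covariate was -3.91 in mutant replicate 2 and between -0.40 and 0.0079 on the other arrays. This fit therefore nearly repeats the one that leaves out mutant replicate 2.

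**Figure D2:**
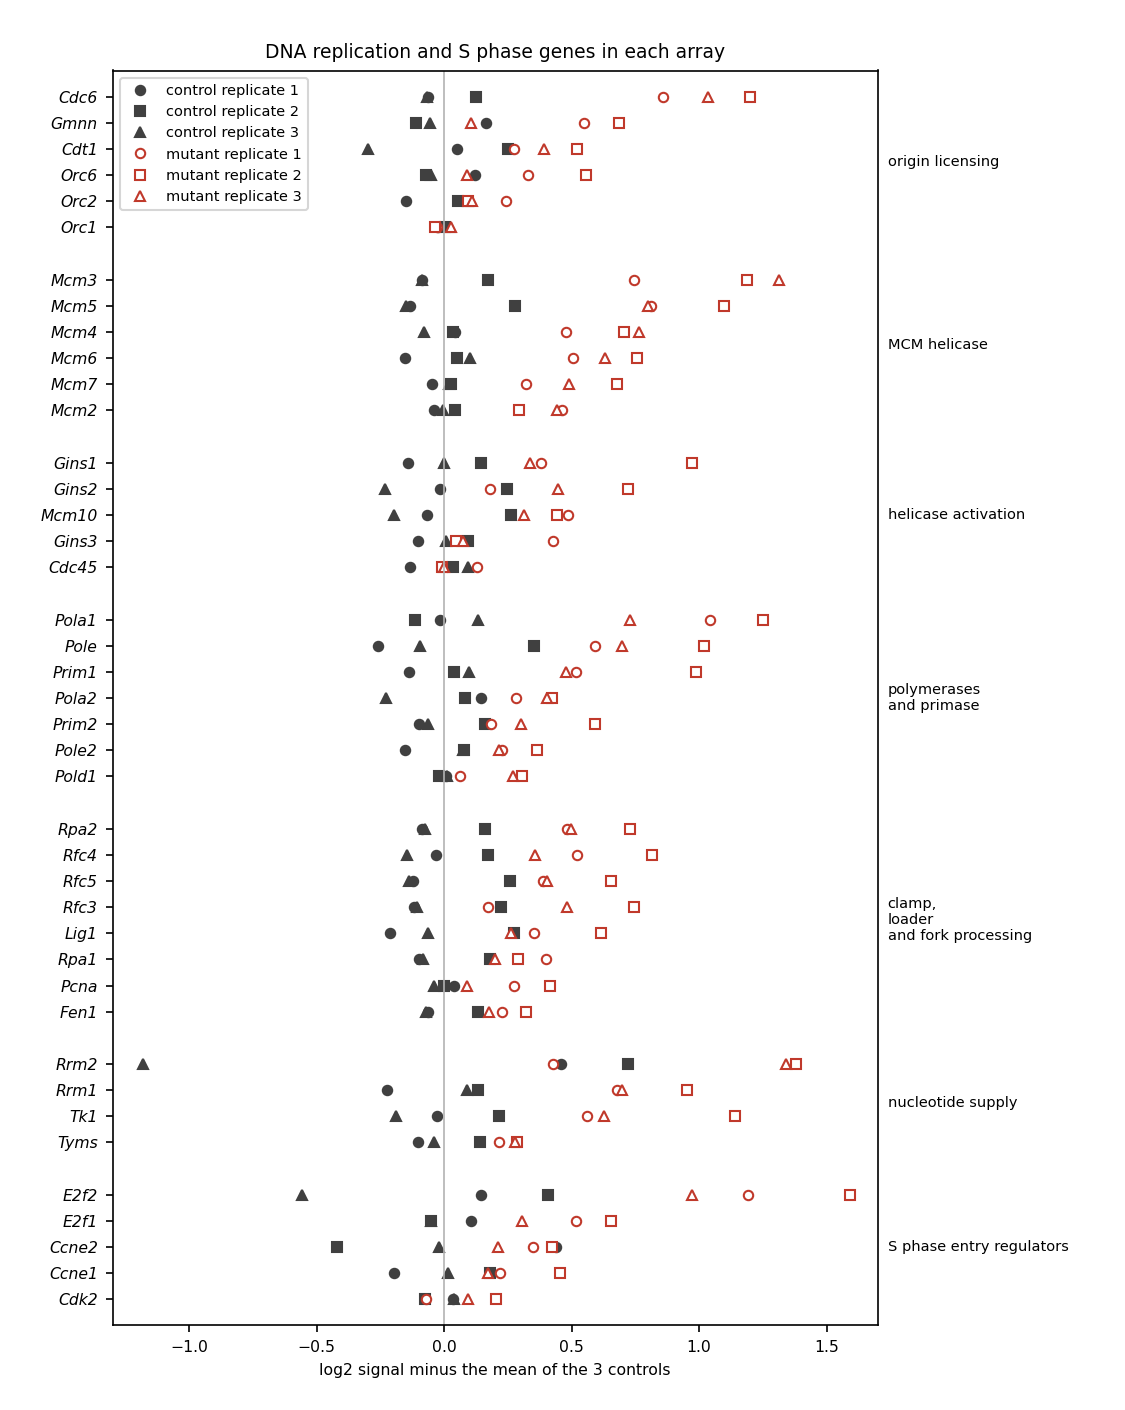
Each of the 41 genes in each array (horizontal axis, difference in log2 signal from the control mean; filled grey symbols, controls; open red symbols, mutants; symbol shape, replicate), by role. The mutants lie to the right of the controls for all 6 MCM subunits and all 7 polymerase and primase genes, while Orc1, Cdc45 and Cdk2 overlap.

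The promoters of these genes are shown because many genes of this set share an element in textbook accounts, the E2F element, through which E2F factors act at the entry into S phase. RefSeq promoter sequences (GRCm38.p6) were matched for 34 of the 41 genes. In the 250 bases before the start site, an E2F element, searched as TTTCCCGC, TTTCGCGC, TTTGGCGC or TTTGCCGC on both strands with overlapping matches allowed, was found in 9 of 34 genes (26.5%), against 3.15% of 14453 genes on the array with a promoter. With the first 50 transcribed bases added the counts were 15 of 34 (44.1%) and 3.81%. The CCAAT box, searched as CCAAT on both strands, was found in the 250 bases of 21 of 34 (61.8%), against 39.4% of genes on the array. The element called CHR, searched as TTTGAA on both strands, was found in 5 of 34 (14.7%), near the 14.1% of genes on the array. Genes with a CHR had a median log2 fold change of 0.24, against 0.47 for those without, a difference that was not tested. The HNF4 element CAAAGTCCA was found in none of the 34 and in 0.512% of genes on the array. A single word this rare was unlikely to turn up among 34 genes, so this search cannot show that they lack HNF4 sites. The median GC content was 58.0% for the 34 genes and 58.8% for the genes on the array, taking the promoter of highest GC content where a gene had several.

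Printed here are the 250 bases before the start site of 4 genes with an element and a log2 fold change between 0.63 and 1.03. Also printed are those of 2 genes with an element whose brightest probe set was near 0, Orc1 (-0.012) and Cdk2 (0.075). The dimmer probe set of Orc1 gave 0.52. Capitals mark the E2F elements, and all run 5′ to 3′ on the gene's strand.
Cdc6 promoter, chr11:98907901-98908150, plus strand: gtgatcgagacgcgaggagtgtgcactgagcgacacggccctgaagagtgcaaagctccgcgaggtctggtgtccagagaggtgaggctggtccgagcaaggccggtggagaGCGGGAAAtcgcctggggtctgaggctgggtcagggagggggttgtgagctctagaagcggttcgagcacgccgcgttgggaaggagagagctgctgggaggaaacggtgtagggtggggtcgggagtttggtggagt
Mcm5 promoter, chr8:75109259-75109508, plus strand: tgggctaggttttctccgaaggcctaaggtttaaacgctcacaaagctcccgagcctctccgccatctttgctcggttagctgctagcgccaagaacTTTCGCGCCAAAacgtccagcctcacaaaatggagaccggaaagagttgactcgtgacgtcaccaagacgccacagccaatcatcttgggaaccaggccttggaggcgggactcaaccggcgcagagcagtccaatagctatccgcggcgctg
Mcm6 promoter, chr1:128359706-128359955, minus strand: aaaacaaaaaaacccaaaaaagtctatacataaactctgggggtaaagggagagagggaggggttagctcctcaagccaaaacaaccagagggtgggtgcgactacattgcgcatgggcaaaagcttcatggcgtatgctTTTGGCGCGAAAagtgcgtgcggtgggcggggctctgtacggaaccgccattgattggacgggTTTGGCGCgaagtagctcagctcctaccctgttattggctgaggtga
Pola1 promoter, chrX:93632156-93632405, minus strand: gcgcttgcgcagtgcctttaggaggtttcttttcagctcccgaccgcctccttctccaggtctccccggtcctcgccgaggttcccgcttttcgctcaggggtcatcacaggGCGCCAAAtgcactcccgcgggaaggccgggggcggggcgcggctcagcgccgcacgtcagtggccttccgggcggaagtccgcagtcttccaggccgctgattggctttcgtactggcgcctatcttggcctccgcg
Orc1 promoter, chr4:108579204-108579453, plus strand: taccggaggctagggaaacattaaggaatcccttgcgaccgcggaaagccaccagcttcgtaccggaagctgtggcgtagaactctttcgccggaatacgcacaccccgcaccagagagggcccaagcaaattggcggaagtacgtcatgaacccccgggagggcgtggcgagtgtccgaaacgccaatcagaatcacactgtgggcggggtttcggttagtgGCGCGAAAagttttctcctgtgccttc
Cdk2 promoter, chr10:128705052-128705301, minus strand: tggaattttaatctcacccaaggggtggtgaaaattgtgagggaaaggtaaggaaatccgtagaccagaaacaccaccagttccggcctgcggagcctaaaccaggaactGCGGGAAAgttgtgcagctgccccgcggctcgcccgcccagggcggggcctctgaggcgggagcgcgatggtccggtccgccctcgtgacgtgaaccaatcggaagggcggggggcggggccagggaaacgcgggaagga
The element in Cdc6 ended 130 bases before the start site, as did that in Pola1. Mcm6 held 2 separate stretches, and Mcm5 held overlapping matches in 1 stretch. The median log2 fold change was 0.50 for the 9 genes with an element in this window and 0.40 for the 25 others with a promoter. That difference was not tested, and a match of letters does not show that a factor binds.

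Among the genes that license origins, Cdc6 rose and the others did not pass the test. Cdc6, which loads the MCM ring, had a log2 signal of 4.88, 5.07 and 4.87 in control replicates 1 to 3, against 5.80, 6.14 and 5.97 in mutant replicates 1 to 3, in that order. The mutants were well above the controls, with a gap wider than the range of either group (log2 fold change 1.03 ± 0.12 SE, adjusted p = 0.0252 by limma). The adjusted p of Cdc6 lay between 0.00937 and 0.140 over 15 alternatives, and its log2 fold change between 0.88 and 1.12. The call for Cdc6 was lost without replicate 1 or 3 of the controls and without replicate 2 or 3 of the mutants, with adjusted p by limma of 0.140, 0.0989, 0.0573 and 0.132 in that order and log2 fold changes between 0.95 and 1.03.

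Cdt1, its partner in loading, had a log2 fold change of 0.40 and geminin (Gmnn), the inhibitor of Cdt1, of 0.45, neither called. Of the origin recognition complex, the 41 genes include Orc1, Orc2 and Orc6. The log2 signal of Orc1 was 6.70, 6.73 and 6.75 in the controls and 6.70, 6.69 and 6.75 in the mutants, so the groups overlapped (log2 fold change -0.012 ± 0.084 SE, adjusted p = 0.961 by limma). A dimmer probe set of Orc1 gave a log2 fold change of 0.52, from a control mean of 4.65 to a mutant mean of 5.17. In that probe set all mutants lay above all controls, so the 2 probe sets of this gene disagree. Orc2 was 6.52, 6.72 and 6.76 in controls and 6.91, 6.76 and 6.78 in mutants (log2 fold change 0.15 ± 0.11 SE, adjusted p = 0.575 by limma), and its 2 other probe sets gave 0.015 and -0.088. Orc6 had a log2 fold change of 0.32.

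Every subunit of the MCM helicase had all mutants above all controls, against 14.5% of all genes. The 6 subunits had log2 fold changes between 0.40 and 1.08 with a median of 0.64. All 6 were higher at an unadjusted p under 0.05, against 10.0% of all genes. At an adjusted p under 0.10, 4 of the 6 were higher, against 1.24% of all genes. The median of the 6 was 0.49, 0.73 and 0.70 in mutant replicates 1 to 3, in that order, relative to the mean of the controls, and between -0.067 and 0.047 in the controls. All 6 remained higher at an unadjusted p under 0.05 without mutant replicate 2, against 6.29% of all genes, and their median there was 0.59.

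Mcm3 had the highest log2 fold change of the ring. On the log2 scale it had 7.23, 7.49 and 7.23 in control replicates 1 to 3, against 8.06, 8.51 and 8.63 in mutant replicates 1 to 3, in that order (log2 fold change 1.08 ± 0.17 SE, adjusted p = 0.0582 by limma). Mutant replicate 3, not mutant replicate 2, was highest for this subunit. Of its 4 other probe sets, 3 gave log2 fold changes between 0.93 and 0.99, and the dimmest gave 0.13. Mcm5 was 7.73, 8.15 and 7.72 in controls and 8.68, 8.96 and 8.67 in mutants (log2 fold change 0.90 ± 0.15 SE, adjusted p = 0.0726 by limma). Its element of the E2F type is in the promoter printed above, and its brightest probe set is of a kind that can also bind related transcripts. The other bright probe set of Mcm5 gave 0.97.

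Mcm4 was 7.31, 7.30 and 7.19 in controls and 7.74, 7.97 and 8.03 in mutants (log2 fold change 0.65 ± 0.11 SE, adjusted p = 0.0715 by limma). Mcm6 was 8.67, 8.87 and 8.93 in controls and 9.33, 9.58 and 9.45 in mutants (log2 fold change 0.63 ± 0.12 SE, adjusted p = 0.0901 by limma). The 4 probe sets of Mcm7 lay close together, with log2 fold changes between 0.50 and 0.60.

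Mcm2 had the lowest log2 fold change of the ring by its brightest probe set. Its log2 signal was 8.57, 8.65 and 8.61 in the controls and 9.07, 8.90 and 9.05 in the mutants, where mutant replicate 2 was the lowest of the 3 mutants (log2 fold change 0.40 ± 0.093 SE, adjusted p = 0.158 by limma). The dimmer probe set of Mcm2 gave 0.76 and passed the test (adjusted p = 0.0384 by limma), the only one besides that of Cdc6 among the 90 probe sets of the 41 genes.

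The 5 genes that activate the helicase had log2 fold changes between 0.041 and 0.56, with a median of 0.41, and none was called. Gins1, a subunit of the GINS complex, had a log2 signal of 4.94, 5.22 and 5.08 in controls and 5.46, 6.05 and 5.41 in mutants (log2 fold change 0.56 ± 0.19 SE, adjusted p = 0.293 by limma). Mutant replicate 2 stood above the other mutants for Gins1, and without it the log2 fold change was 0.36. Gins2 had 0.45 and Gins3 0.18.

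Mcm10, which joins the helicase as it is activated, was 6.20, 6.53 and 6.07 in controls and 6.75, 6.71 and 6.58 in mutants (log2 fold change 0.41 ± 0.14 SE, adjusted p = 0.296 by limma). Its 2 dimmer probe sets gave -0.074 and -0.026, with control means of 4.54 and 3.69. Cdc45, which completes the active helicase, was 5.91, 6.07 and 6.13 in controls and 6.17, 6.03 and 6.04 in mutants, with overlapping groups (log2 fold change 0.041 ± 0.10 SE, adjusted p = 0.884 by limma). As with Orc1, a dimmer probe set of Cdc45 gave more, 0.64 (adjusted p = 0.287 by limma), its mean being 5.62 for controls and 6.26 for mutants. For these genes the size of the difference depends on which probe set is read.

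All 7 genes of the polymerases and primase had all mutants above all controls, against 14.5% of all genes. Their log2 fold changes lay between 0.21 and 1.01, with a median of 0.37. Mutant replicate 2 was the highest array for each of the 7, against 30.4% of all genes. Pola1, the catalytic subunit of polymerase α, had a log2 signal of 5.38, 5.28 and 5.53 in control replicates 1 to 3, against 6.44, 6.65 and 6.12 in mutant replicates 1 to 3, in that order. The gap between the groups was wider than the range of either (log2 fold change 1.01 ± 0.15 SE, adjusted p = 0.0545 by limma), and without mutant replicate 2 the log2 fold change was 0.89. Pola1 lies on the X chromosome, and the mutants, male by their RNA, had the higher signal. A second probe set of Pola1, in the range of Y-linked genes in the female controls, gave -0.029.

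Pole, the catalytic subunit of polymerase ε, had a log2 fold change of 0.77, and Prim1, the subunit of primase that makes RNA primers, of 0.66. Prim2, the other primase subunit, had 0.36. Pold1, the catalytic subunit of polymerase δ, had the lowest value, with 6.56, 6.53 and 6.56 in controls and 6.61, 6.85 and 6.82 in mutants (log2 fold change 0.21 ± 0.10 SE, adjusted p = 0.426 by limma). The accessory subunits were close to each other. Pola2 was 7.41, 7.35 and 7.04 in controls and 7.55, 7.69 and 7.67 in mutants, a log2 fold change of 0.37, and its dimmer probe sets gave 0.21 and -0.18. Pole2 was 6.41, 6.65 and 6.64 in controls and 6.79, 6.93 and 6.78 in mutants, a log2 fold change of 0.27, and its dimmer probe set gave -0.022.

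The clamp, its loader and the proteins that process the fork had log2 fold changes in a narrow range, between 0.24 and 0.57, with a median of 0.44. Of the 8 genes, 7 were higher at an unadjusted p under 0.05, against 10.0% of all genes. Without mutant replicate 2 there were 3, against 6.29% of all genes. None of the 8 passed after adjustment. Rpa2, a subunit of the protein that coats single-stranded DNA, was 6.63, 6.88 and 6.64 in controls and 7.20, 7.45 and 7.22 in mutants (log2 fold change 0.57 ± 0.12 SE, adjusted p = 0.121 by limma). Its partner Rpa1 had 0.30. The loader subunits Rfc3, Rfc4 and Rfc5 had 0.47, 0.56 and 0.48.

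Pcna, the sliding clamp, had the brightest signal of the 41 genes, with a mean of 10.45 in controls, and a log2 fold change of 0.26. Lig1, the ligase that seals lagging-strand fragments, had 0.41. Fen1, which trims the flaps between those fragments, was 9.01, 9.20 and 8.99998 in controls and 9.30, 9.39 and 9.25 in mutants (log2 fold change 0.24 ± 0.10 SE, adjusted p = 0.384 by limma). The dimmer probe set of Fen1 gave 0.64, with a control mean of 6.71.

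Genes that supply nucleotides had the highest median of the 7 role groups, 0.78, over 4 genes. Rrm1, the large subunit of ribonucleotide reductase, was 7.58, 7.94 and 7.89 in controls and 8.48, 8.76 and 8.50 in mutants, again with a clear gap (log2 fold change 0.78 ± 0.14 SE, adjusted p = 0.0806 by limma). Rrm2, the small subunit, had a log2 signal of 7.73, 7.997 and 6.10 in control replicates 1 to 3, against 7.70, 8.66 and 8.62 in mutant replicates 1 to 3, in that order. Control replicate 3 was far below the other controls, and mutant replicate 1 lay below those 2 as well, so the groups overlapped (log2 fold change 1.05 ± 0.52 SE, adjusted p = 0.440 by limma). Without control replicate 3 the log2 fold change of Rrm2 was 0.46. All 3 probe sets of Rrm2 gave log2 fold changes between 1.05 and 1.09.

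Tk1, thymidine kinase of the salvage route, had a log2 fold change of 0.78. Tyms, thymidylate synthase, was dim, with 4.67, 4.91 and 4.73 in controls and 4.98, 5.05 and 5.05 in mutants (log2 fold change 0.26 ± 0.10 SE, adjusted p = 0.351 by limma). Its 3 other probe sets had control means between 3.49 and 3.77, inside the range 2.75 to 4.01 that Y-linked genes gave in the female controls, and were not read as a level.

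Of the 5 regulators of S phase entry, E2f1 and E2f2 had all mutants above all controls by their brightest probe sets, against 14.5% of all genes. None of the 5 passed after adjustment. E2f2 was 6.87, 7.14 and 6.17 in control replicates 1 to 3, against 7.92, 8.32 and 7.70 in mutant replicates 1 to 3, in that order, the highest log2 fold change of the 41 genes (log2 fold change 1.25 ± 0.27 SE, adjusted p = 0.134 by limma). Control replicate 3 was the lowest of the controls for E2f2, as for Rrm2. E2f1, of the same family, had a log2 fold change of 0.49 ± 0.12 SE, and its 2 dimmer probe sets gave 0.44 and 0.22 with overlapping groups. The cyclin E genes Ccne1 and Ccne2 had 0.28 and 0.33 with overlapping groups, while the dimmer probe set of Ccne1 gave 0.40 with all mutants above all controls. Cdk2, the kinase they bind, was 7.09, 6.98 and 7.10 in controls and 6.98, 7.26 and 7.15 in mutants (log2 fold change 0.075 ± 0.11 SE, adjusted p = 0.787 by limma), with a 95% interval from -0.18 to 0.33. Whether E2f2 and Cdk2 differed in their response was not tested.

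**Figure D3:**
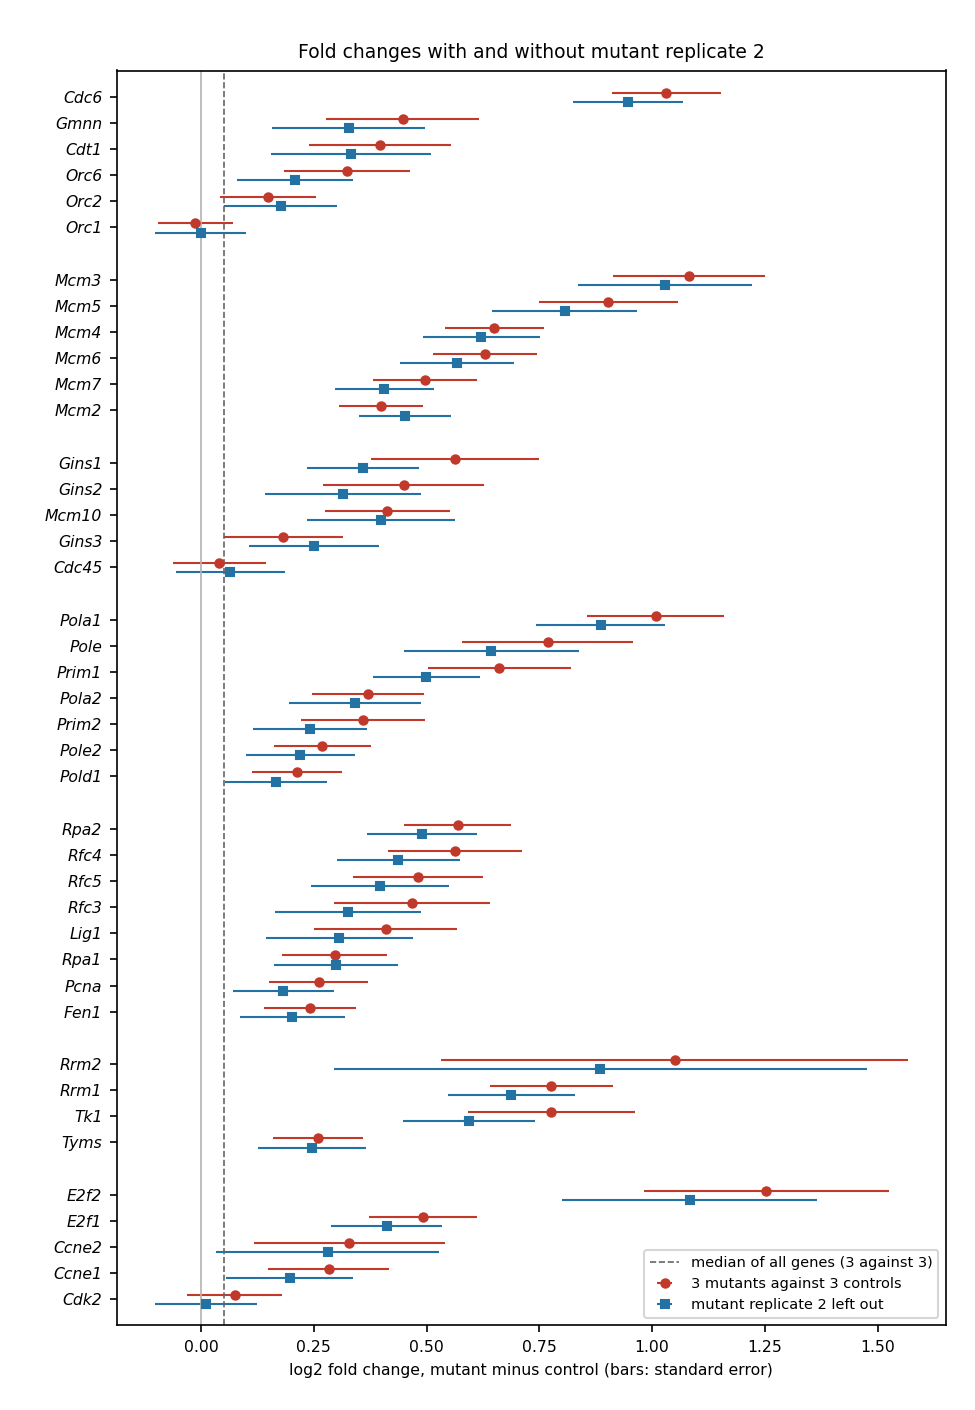
Log2 fold change of each of the 41 genes, mutant minus control (horizontal axis; bars, standard error), with all 6 arrays (red circles) and without mutant replicate 2 (blue squares). The dashed line marks the median of all genes. Cdc6 goes from 1.03 to 0.95 and Gins1 from 0.56 to 0.36, while Mcm2 goes from 0.40 to 0.45.

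The brightness of a probe set bears on these values. Of the 41 genes, 32 had several probe sets, and in 7 of these a dimmer one had the opposite sign. Over all 90 probe sets, 82 had a positive log2 fold change, with a median of 0.41. The 11 whose means in both groups lay below 4.01, the highest signal of a Y-linked gene in the controls, had values between -0.029 and 0.14. The other 79 had a median of 0.45, and 4 of them were negative. The brightest probe set of 9 genes carries a suffix, x or s, that marks a set able to bind related transcripts too. These are Mcm2, Mcm3, Mcm5, Mcm7, Gins2, Pold1, Fen1, Rrm2 and Ccne1.

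**Figure D4:**
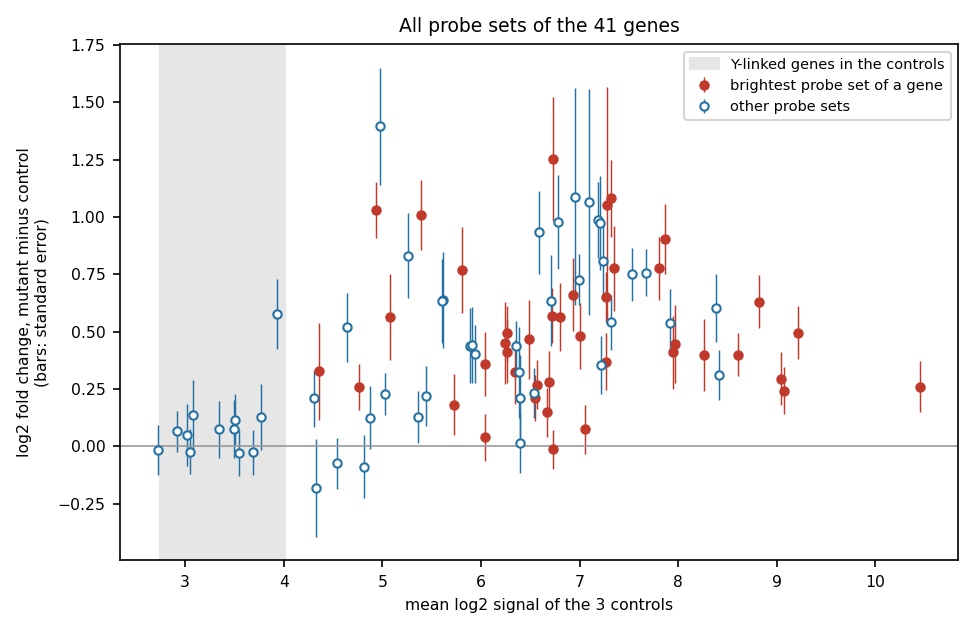
All 90 probe sets of the 41 genes by mean log2 signal of the controls (horizontal axis) and log2 fold change, mutant minus control (vertical axis; bars, standard error). Red points are the brightest set of each gene and blue points the others. In the grey band, which spans the Y-linked genes in the female controls (2.75 to 4.01), most values lie near 0.

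Of 27 further replisome and origin genes, Pold3, a subunit of polymerase δ, rose, and none fell. Pold3 was 7.99, 7.65 and 7.75 in controls and 8.56, 8.80 and 8.75 in mutants (log2 fold change 0.90 ± 0.13 SE, adjusted p = 0.0425 by limma, and 0.85 without mutant replicate 2, adjusted p = 0.113). Dscc1, of an alternative clamp loader, had 0.88 (adjusted p = 0.230 by limma). The median of the 27 was 0.23, and 24 were positive, against 60.4% of all genes. At an unadjusted p under 0.05, 8 were higher and none lower, against 10.0% and 6.18% of all genes. Without mutant replicate 2 the median was 0.15, and 3 were higher and 1 lower at that level, against 1145 and 1020 of all 18193 genes. The lower one was Pold2, another subunit of polymerase δ, named after its values were seen, with a log2 fold change of -0.33 over all arrays and -0.47 without mutant replicate 2.

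Genes of chromatin assembly at forks had the highest median of the further replication lists. Of 9 measured genes, Hells, a chromatin remodeller needed for DNA methylation, rose from 6.42, 6.31 and 6.04 in controls to 7.31, 7.82 and 7.33 in mutants (log2 fold change 1.23 ± 0.17 SE, adjusted p = 0.0439 by limma, and 1.07 without mutant replicate 2, adjusted p = 0.0650). Nasp, a histone chaperone, had 0.52 (adjusted p = 0.148 by limma). All 9 were positive, against 60.4% of all genes, with a median of 0.58. Of the 9, 7 were higher at an unadjusted p under 0.05, against 10.0% of all genes.

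In the list of the replication checkpoint, 4 of 11 genes were higher at an unadjusted p under 0.05, against 10.0% of all genes. None of the 11 passed after adjustment. Clspn, which links the stalled fork to the kinase Chek1, was 5.28, 5.62 and 5.50 in controls and 6.30, 6.68 and 6.35 in mutants (log2 fold change 0.98 ± 0.14 SE, adjusted p = 0.0504 by limma). Chek1 had 0.92 (adjusted p = 0.0698 by limma). The median of the list was 0.22. Of 12 other nucleotide supply genes none was called, and Dtymk, thymidylate kinase (0.57, adjusted p = 0.0969 by limma), and Dut, dUTPase (0.60, adjusted p = 0.112 by limma), had the smallest p. In that list 3 were higher and 1 lower at an unadjusted p under 0.05, against 10.0% and 6.18% of all genes. The lower one was Rrm2b, the subunit of ribonucleotide reductase that is induced by p53 (-0.59, adjusted p = 0.266 by limma).

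Among 23 genes of cyclins, RB proteins, E2F factors and CDK inhibitors, which set the step from G1 to S, values lay on both sides. E2f7, an E2F repressor, rose from 5.20, 5.22 and 5.16 in controls to 5.93, 6.28 and 5.95 in mutants (log2 fold change 0.86 ± 0.12 SE, adjusted p = 0.0436 by limma, and 0.74 without mutant replicate 2, adjusted p = 0.0659). Its relative E2f8 had 0.78 (adjusted p = 0.0924 by limma). At an unadjusted p under 0.05, 8 were higher and 4 lower, against 10.0% and 6.18% of all genes. Without mutant replicate 2 these were 5 and 3, against 1145 and 1020 of all 18193 genes. None of the 4 lower genes passed after adjustment. They were Cdkn1c, the CDK inhibitor p57 (-1.34, adjusted p = 0.112 by limma), Cdkn1b, the inhibitor p27 (-0.53), Rb1, the retinoblastoma protein (-0.47), and its relative Rbl2 (-0.49). Cdkn1c was 7.30, 8.32 and 8.10 in control replicates 1 to 3, against 6.78, 6.61 and 6.32 in mutant replicates 1 to 3, in that order, with no overlap. Its log2 fold change was -1.35 without mutant replicate 2. Cdkn1c, Cdkn1b, Rb1, Rbl2 and Rrm2b were named after their values were seen.

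A list of 20 mitosis genes, the step that follows S phase, had a median log2 fold change of 0.77, against 0.45 for the replication genes, a difference that was not tested. Relative to the mean of the controls, its median was -0.0029, 0.28 and -0.25 in the controls. It was 0.77, 1.18 and 0.46 in mutant replicates 1 to 3, in that order. By this median all mutants lay above all controls. Gene by gene they did in 13 of the 20, against 14.5% of all genes. Mutant replicate 2 was the highest array for all 20 mitosis genes, against 30.4% of all genes. Of the 20, Bub1b, a kinase of the spindle checkpoint, rose (log2 fold change 0.78 ± 0.11 SE, adjusted p = 0.0425 by limma). At an unadjusted p under 0.05, 18 were higher, against 10.0% of all genes. Without mutant replicate 2, 12 were higher at that level, against 6.29% of all genes. None was called there, and the median was 0.60.

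Markers of muscle, matrix and endothelium were lowest in mutant replicate 2, and those of muscle and endothelium were also lower in the other mutants. With the control mean set to 0, the 15 smooth muscle markers had medians of -0.28, -3.91 and -0.40 in mutant replicates 1 to 3, in that order, with all 15 negative by log2 fold change and none called. Without mutant replicate 2 all 15 were still negative, and 9 were lower at an unadjusted p under 0.05, against 1020 of all 18193 genes. All 15 fibroblast and matrix markers were also negative, with a summed linear signal of 1588 in mutant replicate 2, 11570 and 9092 in mutant replicates 1 and 3 and between 10854 and 14141 in controls. The median of 12 gut epithelium markers was 0.047, 0.20 and 0.19 in the mutants. Their log2 fold changes were mixed, between -0.49 and 0.75, with 9 positive and 3 negative. The part of tissue makeup in the difference of the replication genes was not tested beyond the fits without mutant replicate 2 and with the muscle covariate. Those fits are not separate checks, since the covariate mainly marks mutant replicate 2. The part of tissue makeup in mutant replicates 1 and 3 was not tested.

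Lymphocytes of gut follicles also divide. The 11 measured markers of B cells and germinal centres had a summed linear signal between 429 and 596 in controls and between 414 and 445 in mutants, and the median of their log2 fold changes was -0.035. That of 9 T cell markers was -0.058, with a summed signal between 658 and 775 in controls and between 690 and 721 in mutants. By these sums neither list was higher in the mutants beyond the range of the controls. The B cell list was dim, with a median log2 signal between 5.09 and 5.47 in controls. Of its 11 markers, 4 were lower at an unadjusted p under 0.05, against 6.18% of all genes. The part of lymphocytes in the result was not tested. The median of 11 crypt stem cell markers was 0.057, with a summed signal between 6198 and 8022 in controls and between 8805 and 9531 in mutants. By this sum all mutants lay above all controls. Gene by gene the stem cell markers were mixed, with 7 positive and 4 negative log2 fold changes between -0.69 and 0.80. Their median relative to the control mean overlapped between the groups, from -0.29 to 0.13 in controls and from 0.0058 to 0.25 in mutants. The part of stem cells in the result was not tested. The 9 endothelium markers summed to between 1025 and 1089 in controls and 866, 363 and 810 in mutants, and the 11 macrophage and neutrophil markers to between 2226 and 2522 in controls and 2247, 1064 and 2465 in mutants. By these sums the array low in muscle was the lowest for both. The macrophage and neutrophil markers were mixed, with 6 positive and 5 negative log2 fold changes between -1.24 and 1.28. Their median relative to the control mean was 0.13, 0.15 and 0.097 in mutant replicates 1 to 3, in that order. It was between -0.13 and 0.14 in controls. Of the 11, 3 were higher and none lower at an unadjusted p under 0.05, against 10.0% and 6.18% of all genes. Without mutant replicate 2 all 9 endothelium markers still had a negative log2 fold change. At an unadjusted p under 0.05, 4 of them were lower, against 1020 of all 18193 genes.

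**Figure D5:**
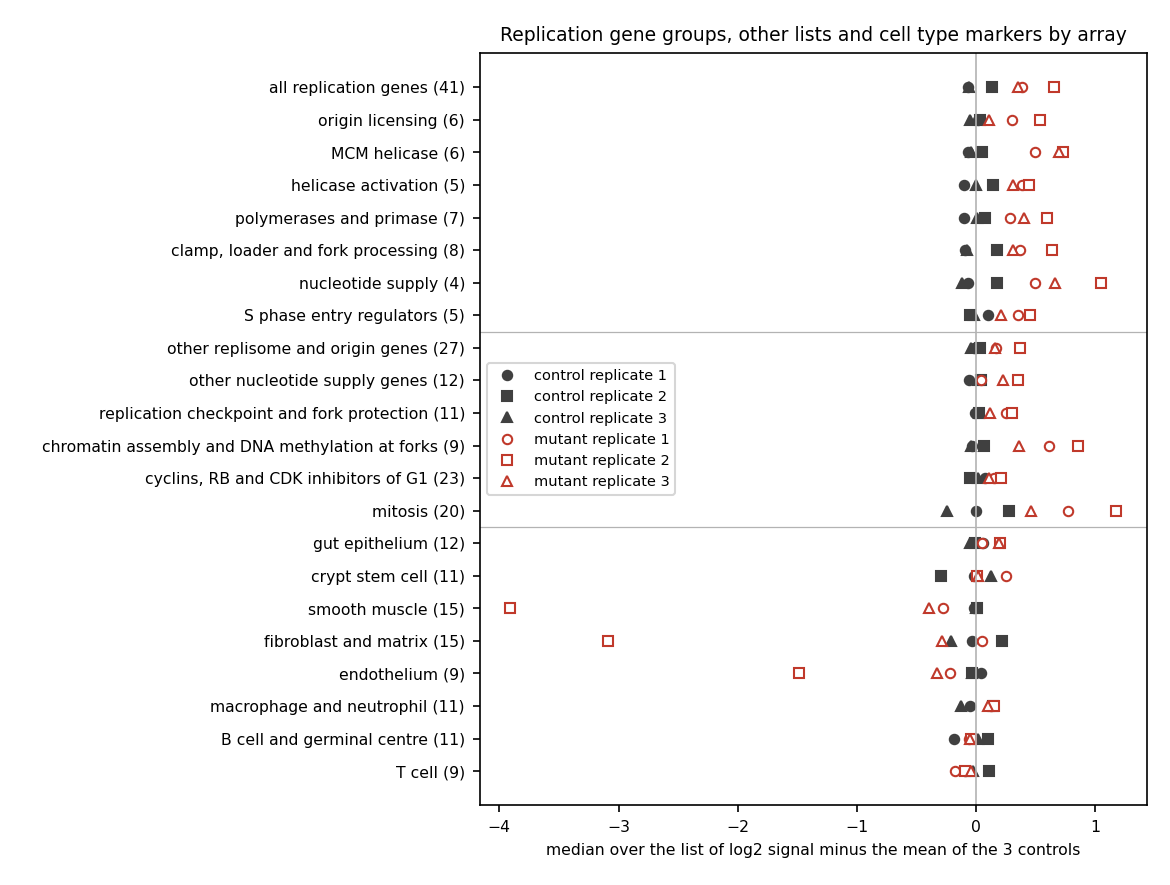
Median over each list of the difference in log2 signal from the control mean (horizontal axis) in each array, for the replication genes and their role groups, other lists of the cell cycle and cell type markers, with the number of measured genes in parentheses (filled grey symbols, controls; open red symbols, mutants; symbol shape, replicate). The lowest point for smooth muscle, at -3.91, is mutant replicate 2, and the 3 mutants lie to the right of the 3 controls for the replication genes as a whole.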

How the data were processed

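Per the labels and the study's methods, the authors hybridised colon RNA of 3 control and 3 mutant mice to Affymetrix whole-genome mouse arrays and normalized them by RMA, which gives log2 values per probe set. These deposited log2 values were used unchanged, with array medians between 5.43 and 5.53. Arrays have no read depth, and their number limits the precision.

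Without 64 controls of the array, 45037 probe sets were fitted with limma (version 3.58.1 in R 4.3.3), mutant minus control, with Benjamini-Hochberg adjustment over all of them. The study screened its values with SAM, which was not run here. Of the probe sets, 34945 had 1 gene symbol, 932 several and 9160 none in GEO's platform annotation. Values in all arrays are given for members at an adjusted p under 0.05, for the highest and lowest fold change and smallest p of each role group and for members with a probe set of opposite sign. Other members were named after their values were seen. The members, lists and tests were chosen with earlier results of these data known. The fit was tested on simulated data. Alternatives left out each array, changed the scaling, probe set, filter, weights, variance prior or threshold, or added a block or covariate.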

Additional observations from a re-analysis of the deposited data

How the results depend on the processing

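The number of genes that rose at an adjusted p under 0.05 was 1 and lay between 0 and 2 with each array left out. It was 0 with the replicate block and with the smooth muscle covariate, 2 with the most variable probe set, with dim probe sets left out (39 genes measured) or with arrays centred on gut epithelium markers, 3 with the mean of all probe sets, 7 with array weights and 7 at an adjusted p under 0.10. Mcm3 passed with array weights (1.17), with epithelium centring (0.93) and without mutant replicate 1 (1.25), and Mcm5 without control replicate 2. None of the 41 genes passed without control replicate 1 or 3 or mutant replicate 2 or 3. The number higher at an unadjusted p under 0.05, 30, lay between 18 and 31 with each array left out (18 without control replicate 3, 19 without mutant replicate 2), and was 15 with epithelium centring and 16 with the muscle covariate. The median, 0.45, lay between 0.34 and 0.52 with each array left out. Epithelium centring lowered it to 0.30 and the median of all genes from 0.051 to -0.096, which by construction leaves the gap between them as it was, while genes with all mutants above all controls went from 28 to 16. Shares of all genes for such counts were taken only in the main fit and the fit without mutant replicate 2. Under the other alternatives they were not counted, so the counts given for those cannot be set against all genes. The sign turned for Orc1, Orc2, Cdc45, Cdk2 and Pola2 under some alternatives. Orc1 was 0.25 with the mean of its probe sets, 0.52 with the most variable one, 0.020 with median centring and 0.0017 with the muscle covariate. Cdc45 lay between -0.025 and 0.089 with each array left out (-0.0029 without mutant replicate 1) and was -0.11 with epithelium centring, where Cdk2 was -0.072. Cdk2 was -0.0090 with the muscle covariate. With the most variable probe set, Orc2 was -0.088 and Pola2 -0.18. The cause of these changes was not tested. Replicate numbers do not pair the mice by any label, and the deviations of same-numbered arrays correlated at -0.025, 0.25 and -0.15. Cdc6 had an adjusted p of 0.0865 with the muscle covariate (log2 fold change 0.92) and, with the replicate block, of 0.0642 (1.03), and 30 genes were still higher at an unadjusted p under 0.05.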
